A study of Homo sapiens with 7 samples.

Results

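The regions described here are 280 stretches of chromatin that were more accessible after silencing of PHF19 and lie 1 to 3 kb from a transcription start site (TSS). They were chosen from the authors' deposited tables by 2 criteria: a higher mean in the knockdown than in the control, and an annotation as a promoter region 1 to 2 kb or 2 to 3 kb out. They are 3.25% of the 8615 gained regions (95% Clopper-Pearson interval 2.89 to 3.65%), out of 8815 regions listed as changed in either direction, and 6.48% of the 4318 gained regions annotated as promoter. The nearest genes number 267, on 23 chromosomes. Of the 280 regions, 180 (64.3%) lie in the 1 to 2 kb band and 100 (35.7%) in the 2 to 3 kb band.

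The assay was ATAC-seq, which uses a transposase to cut and tag open chromatin for sequencing. The cells were Kasumi-1, an established acute myeloid leukaemia line with the RUNX1-RUNX1T1 fusion. The labels give 3 libraries from cells that received PHF19 shRNA in a lentiviral vector and 4 from cells that received a scrambled control shRNA. Both groups were put under puromycin selection (2 µg/ml, from 48 hours after the shRNA, for 24 hours or more), and 10000 cells went into each library. For each region the deposited tables hold 1 mean per group and no value per library, so single libraries cannot be shown, no SD or n is attached to a value, and nothing below is tested. Whether the libraries came from separate cultures is not stated, so the authors' p-values may measure technical spread alone. Depth per library is unknown. A higher read level in a bulk sample can come from more cells with an open site or from more open chromatin per cell, and these cannot be told apart. No expression value was available, so the knockdown itself was not checked.

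PHF19 is a Polycomb-like protein that binds methylated histone H3 and joins Polycomb repressive complex 2 (PRC2), the enzyme complex that methylates lysine 27 of histone H3 at repressed genes. Promoters have a core around the TSS, which in active genes is kept free of nucleosomes. The flanks beyond the first nucleosomes hold more variable open sites: upstream enhancer-like elements, first introns with regulatory elements, and alternative starts. PRC2 is found mainly at promoters rich in the dinucleotide CpG.

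Read levels below are the authors' mean normalised reads, folds are the authors' log2 folds of knockdown over control, and the false discovery rate (FDR) is the authors' own, all from the authors' deposited tables. Coordinates are as deposited, 1-based. Build hg38 is named in the submitters' processing notes, but a gene start or end equalled that of GRCh38 in 1 of the 280 regions and gene starts were shifted by a median of 395 kb, so the coordinates are read as hg19. A region counts as called where the authors list it as gained with an FDR under 0.05, which holds for 16.4% of the 52675 regions tested. All 280 regions are called by the way they were chosen, so nothing is read from that count.

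The group in which the largest share of genes had such a region was that of immediate early genes, whose transcription is induced within minutes of a stimulus. Promoters of 3 of them are shown because their gained regions are described below and because a gained region covers the start at JUND and ends shortly before it at EGR1, while none is listed within 1 kb at JUNB. Each is the 250 bases before the RefSeq start in GRCh38.p14, on the coding strand, 5′ to 3′. They show the starts of these genes, not the outer regions' own sequence. The outer distances are measured from the deposited starts, which were not matched base by base to those of RefSeq. Capitals mark CArG boxes (the site of serum response factor) in EGR1, the cAMP response element TGACGTCA in JUND, and the TATA box TATAAA in JUNB.
EGR1 (5, 138465229 to 138465478, plus strand): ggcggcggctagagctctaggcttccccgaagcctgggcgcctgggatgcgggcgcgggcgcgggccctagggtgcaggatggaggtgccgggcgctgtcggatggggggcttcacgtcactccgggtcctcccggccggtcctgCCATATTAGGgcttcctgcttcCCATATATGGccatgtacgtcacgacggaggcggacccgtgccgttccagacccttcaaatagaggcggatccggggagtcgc
JUND (19, 18281623 to 18281872, minus strand): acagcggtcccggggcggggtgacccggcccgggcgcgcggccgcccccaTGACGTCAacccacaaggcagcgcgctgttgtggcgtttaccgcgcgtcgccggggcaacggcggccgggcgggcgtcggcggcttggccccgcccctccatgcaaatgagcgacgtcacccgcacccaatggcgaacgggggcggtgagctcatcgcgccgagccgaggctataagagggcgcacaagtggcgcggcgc
JUNB (19, 12791236 to 12791485, plus strand): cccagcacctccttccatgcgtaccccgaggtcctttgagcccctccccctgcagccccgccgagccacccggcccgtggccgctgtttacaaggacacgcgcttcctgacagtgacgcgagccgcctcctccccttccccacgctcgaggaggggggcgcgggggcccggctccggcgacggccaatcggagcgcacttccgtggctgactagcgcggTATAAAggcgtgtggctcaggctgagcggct
The EGR1 window held 2 CArG boxes, the nearer ending 73 bases before the start. In JUND the response element lay 192 bases before the start, and in JUNB the TATA box lay 25 bases before it.

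MicroRNA genes were also among the nearest genes. MIR17HG, the host of the miR-17 to miR-92a cluster, holds 6 hairpins. The main mature product of each, in RefSeq's GRCh38.p14 annotation, is shown with the seed (bases 2 to 8, which pair with targets) in capitals, together with those of MIR148A and MIR26A1, to show which seeds the genes beside these regions encode.
miR-17-5p: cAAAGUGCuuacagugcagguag
miR-20a-5p: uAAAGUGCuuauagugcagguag
miR-18a-5p: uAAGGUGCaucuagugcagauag
miR-19a-3p: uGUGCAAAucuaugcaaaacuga
miR-19b-3p: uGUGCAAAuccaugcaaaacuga
miR-92a-3p: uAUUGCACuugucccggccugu
miR-148a-3p: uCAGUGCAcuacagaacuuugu
miR-26a-5p: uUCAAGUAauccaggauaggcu
Within the cluster, miR-17-5p and miR-20a-5p share the seed AAAGUGC, and miR-19a-3p and miR-19b-3p share GUGCAAA. The other 4 sequences each have a seed of their own.

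The 280 regions had a median log2 fold of 0.95, or 1.94-fold (exact order-statistic interval of the log2 value 0.93 to 0.99), with an interquartile range of 0.85 to 1.12 and all between 0.59 and 1.74. Because the direction of change chose them, these folds describe the set and support nothing further. All gained regions had a median of 0.97. The median mean over the knockdown libraries was 25.1 reads, against 10.1 in the control, close to the 27.5 and 11.2 of all gained regions. The median difference between the group means was 1.32 on the log2 scale, larger than the deposited fold, which lay below that difference in all 280 regions.

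Position relative to the start went with both the size of the gain and the read level. Gained regions that cover a TSS had a median log2 fold of 0.87 (n = 2982), those within 1 kb but not covering it 0.93 (n = 1056), the 1 to 2 kb band 0.94, the 2 to 3 kb band 1.002, and regions in introns and between genes 1.03 each (n = 1765 and n = 2306). Read levels ran the other way. The median over all libraries was 37.3 reads at regions covering a TSS, 25.1 within 1 kb, 18.4 in the 1 to 2 kb band, 14.8 in the 2 to 3 kb band, 9.93 in introns and 10.4 between genes. Means under 10 reads were found in 74 of the 280 regions (26.4%), against 1.94% of those covering a TSS and 50.4% of those in introns. All regions compared here were listed at the authors' FDR under 0.05, and passing it can depend on both fold and read level. The 2 orders are therefore not independent of that threshold. The part of read level in the order of the folds was not tested.

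**Figure D1:**
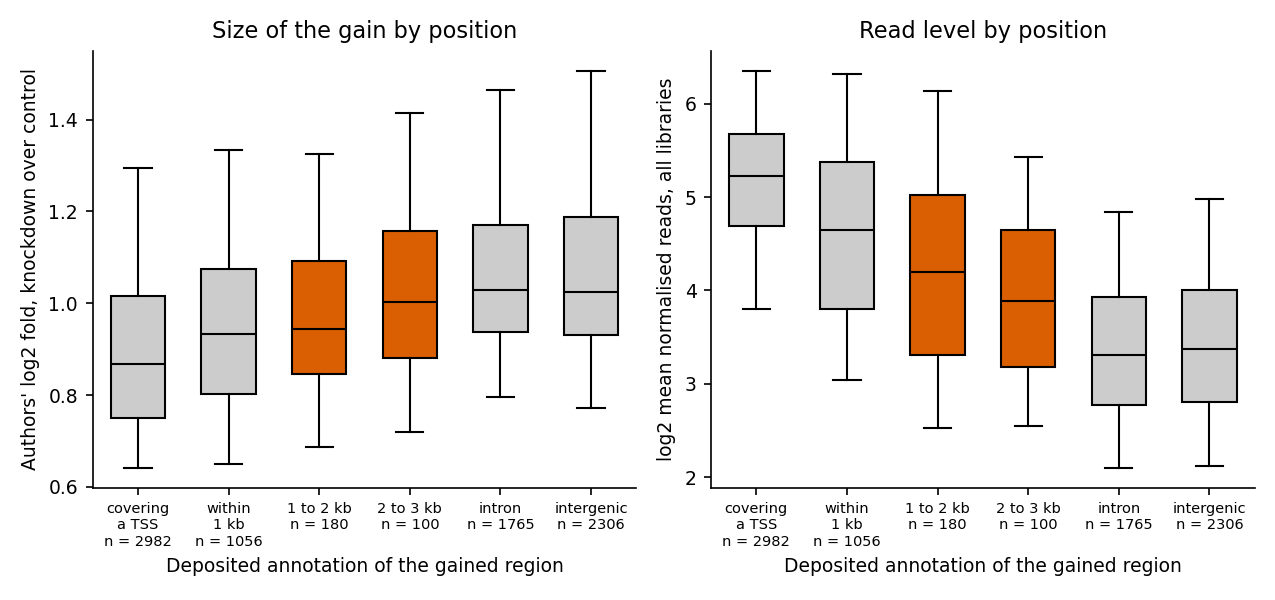
Boxes show the authors' log2 fold (left) and log2 mean normalised reads over all libraries (right) of gained regions by deposited position, with the line at the median, the box over the interquartile range and whiskers from the 5th to the 95th percentile. The 1 to 2 kb and 2 to 3 kb bands (orange) lie between the promoter core and the introns on both measures, with median folds of 0.94 and 1.002.

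At the stricter FDR of 0.01, 121 of the 280 regions (43.2%) were listed, against 3951 of all gained regions (45.9%), which is 7.5% of the regions tested. A log2 fold of at least 1 was likewise reached by 121 regions (43.2%), against 3737 of all gained regions (43.4%), or 7.09% of the regions tested. In 3 regions the control mean lay at the floor of 1 read: HAVCR2 (9.65 reads in the knockdown), OR9A4 (7.59 reads) and DIRC1 (6.20 reads). OR9A4 and DIRC1 are outside the rule for named genes and are given because they complete this count. Most regions, 258 (92.1%), were 401 bp wide, and the widest had 1037 bp.

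The values on each side of the limits were as follows. The included regions nearest to the 1 kb limit were those of DCUN1D4 (1001 bp downstream, log2 fold 1.08), HES1 (1004 bp upstream, 0.69) and SMAD6 (1008 bp upstream, 0.64). Left out just short of 1 kb were LRCH4 (998 bp, 0.69), MIDN (993 bp, 0.98) and SLMAP (992 bp, 0.62). At the 3 kb limit, the last regions included were those of ANP32A (2981 bp, 0.97), PPM1A (2948 bp, 1.10) and OCA2 (2943 bp, 1.06), and the first left out were SCAMP2 (3001 bp, 0.76), KDM6B (3014 bp, 1.03) and HPS3 (3040 bp, 0.93). The folds nearest to no change were 0.59 at SLC17A9, 0.59 at LYL1 and 0.60 at CD300A on the gained side, and -0.81 at SEC14L1, -0.82 at SCRT2 and -0.84 at PPFIA3 on the decreased side.

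At the main threshold, gained regions lay on both sides of the deposited start in like numbers. That start can be internal to a gene, so an upstream region can lie within another transcript, as 1 does at CDK13. How many upstream regions do was not determined. Upstream were 133 (47.5%, 95% Clopper-Pearson interval 41.5 to 53.5%) and downstream 147. The upstream share was 45% in the 1 to 2 kb band, 52% in the 2 to 3 kb band and 46.1% among the 1056 gained regions within 1 kb. Among outer regions with an FDR of at most 0.01 it was 40.5% (31.7 to 49.8%), an interval below an even split. With a log2 fold of at least 1 it was 41.3% (32.4 to 50.6%). Among the 17 decreased regions 1 to 3 kb out, 13 were upstream (76.5%, 50.1 to 93.2%). These intervals allow for counting error alone, as regions that lie close together are not separate observations. The intervals of the gained and decreased shares overlap, but overlap is not a test, and the difference was not tested. The median log2 fold was 0.94 upstream and 0.99 downstream, and a log2 fold of at least 1 was reached by 37.6% of upstream and 48.3% of downstream regions.

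Downstream regions were mostly within the gene body. Of the 147, 140 lay inside the deposited transcript, 2 ran across its end and 5 lay past it, at TMSB10, MIR5188, MIR4648, JUNB and OR4K2, whose transcripts are short. These 5 are named because they make up this count. The deposited label "promoter" takes the place of an exon or intron label, so which of these the 140 fall in was not determined.

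**Figure D2:**
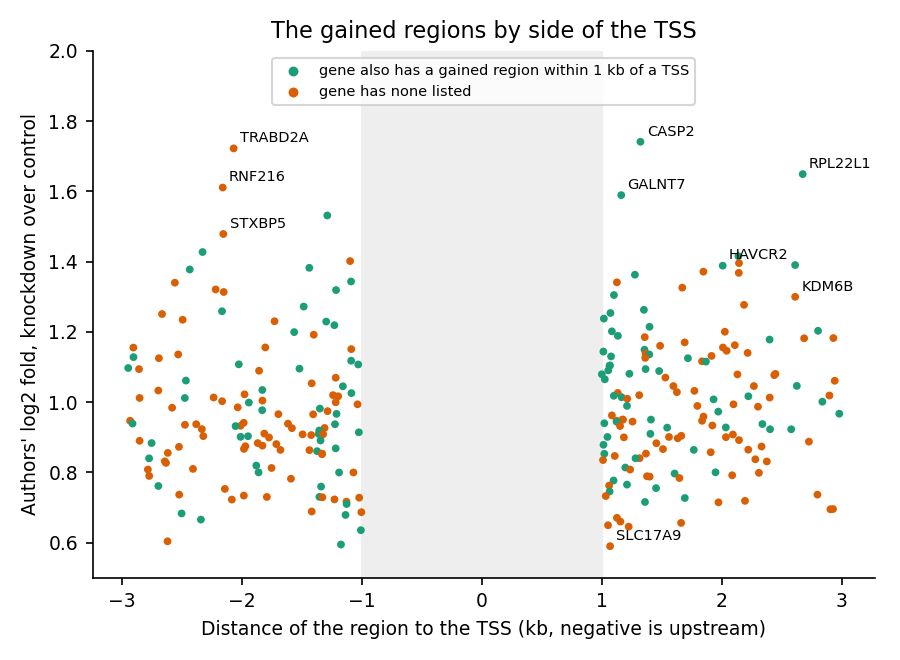
Each point is 1 of the 280 gained regions, placed by its distance to the TSS in kb (negative upstream, grey the excluded inner 1 kb) and by the authors' log2 fold, and coloured by whether the same gene also has a gained region within 1 kb of a TSS. Folds ran from 0.59 at LYL1 to 1.72 at TRABD2A in the 133 upstream regions and from 0.59 at SLC17A9 to 1.74 at CASP2 in the 147 downstream regions.

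The start of the same gene was often listed too. A gained region of the same gene within 1 kb of a TSS, called a start region below, existed for 113 of the 280 regions (40.4%, 34.6 to 46.4%), and for 80 of them (28.6% of the 280) it covered the TSS itself. The share was 46.1% of the 1 to 2 kb band (38.7 to 53.7%) and 30% of the 2 to 3 kb band (21.2 to 40.0%). For comparison, 28.3% of gained intron regions and 29.0% of gained intergenic regions had a start region of their nearest gene. The remaining 167 outer regions (59.6%) had no start region among the listed regions. A start that is not listed may not have been tested or may have missed the authors' thresholds, and these cannot be told apart here.

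Outer regions with a start region had a median log2 fold of 1.01 (0.94 to 1.08), and those without one 0.94 (0.90 to 0.97). A log2 fold of at least 1 was reached by 51.3% of the former and 37.7% of the latter. In 24 of the 113 pairs the gene had more than 1 start region, and the nearest was taken. In 23 pairs the nearest start region lay over 3 kb away, at the start of another transcript of the gene. The outer region had the higher fold in 57 pairs (50.4%, 40.9 to 59.98%), and the median difference, outer minus start, was 0.04 on the log2 scale (-0.05 to 0.08), with an interquartile range of -0.14 to 0.21. Taking the start region with the largest fold instead, which favours the start, gave 53 pairs and a median of -0.02. In the 90 pairs within 3 kb, the outer region was higher in 42 (46.7%, 36.1 to 57.5%). All these intervals include an even split. The nearest start regions had a median fold of 0.97 at 32.7 reads over all libraries, against 16.5 reads for the outer regions.

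Single pairs differed by much more. At RPL22L1, which encodes a paralogue of a ribosomal protein, the region 2676 bp downstream had 19.9 against 3.79 reads (knockdown against control), a log2 fold of 1.65, while the region covering its start had 0.70. At GSK3B, a protein kinase of the Wnt and insulin pathways, the region 1090 bp upstream had 59.2 against 19.4 reads and a log2 fold of 1.34, and the start region 0.60. The outer region also led at DAGLB, an endocannabinoid-producing lipase gene (1.53 against 0.89). It led at CASP2 (1.74 against 1.03) and AGPAT4 (1.20 against 0.75) too, but there the start region belongs to another transcript, 12.7 and 44.4 kb away. The start region led at IGF1R, the receptor of insulin-like growth factors (1.78 against 0.98 in the outer region), and at MIR3960 (1.27 against 0.67). It led at the cyclin-dependent kinase gene CDK13 as well (1.61 against 1.03), from 35.5 kb away.

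Start regions of the same gene could themselves differ. At EEF1A1, the gene of a translation elongation factor, the outer region 2476 bp upstream had a log2 fold of 1.01 (36.8 against 15.6 reads), above the 0.81 of the region covering a start and below the 2.11 of a region flanking it. At INSIG1, which restrains sterol synthesis, the outer region had 1.13, against 1.07 in the region covering a start and 1.73 in one 381 bp upstream. The genes in these 2 paragraphs were picked for the size of the difference from the start region of largest fold, and the differences carry no error.

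**Figure D3:**
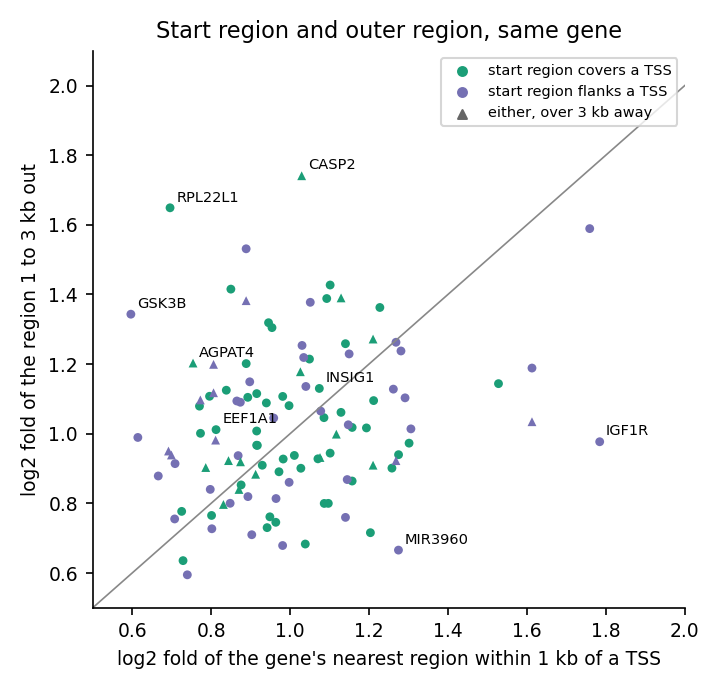
Each of the 113 points is an outer region, with the authors' log2 fold of the gene's nearest start region on the horizontal axis and of the region 1 to 3 kb out on the vertical axis; the line marks equal folds, colour tells whether the start region covers or flanks a TSS, and triangles mark start regions over 3 kb away. Points fall on both sides of the line, 57 above it, with RPL22L1 and GSK3B far above and IGF1R far below.

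The outer regions sat close to other gained regions. The nearest other gained region, of any gene, was a median of 15.8 kb away (7.72 to 30.5 kb), against 57.5 kb for all gained regions, and it was within 3 kb for 109 of the 280 (38.9%, 33.2 to 44.9%). The same share was 41.8% for regions within 1 kb of a TSS, 16.6% for those covering it, 7.14% in introns and 5.33% between genes. A start region is itself a near neighbour, and the median distance was 1.18 kb for outer regions with one and 76.8 kb for those without. In 73 regions the nearest other gained region lay over 100 kb away. Of the 267 genes, 79 (29.6%) had at least 3 gained regions, against 611 of the 5788 genes with any (10.6%), and 114 (42.7%) had gained regions 1 to 3 kb out only. A gene with more regions has more chances to be counted, so these shares are not independent of the choice of regions.

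In 13 genes, 2 outer regions were listed, and no gene had more. The pair lay 74 bp apart at AKAP13, which encodes a kinase anchoring protein, 89 bp at NR4A2, 118 bp at ANP32A, 225 bp at DDX11L2, 266 bp at JUND, 386 bp at TENT4A and 549 bp at IER2. It lay 2.89 kb apart at SDCCAG8, 3.19 kb at JUNB and 3.45 kb at GPR65, on either side of the start in each. At APP, CDK13 and DAGLB the 2 regions belong to different transcripts, 201, 33.5 and 11.6 kb apart. A decreased region was listed for 1 of the 267 genes, PLEKHG1. Its outer region, 1018 bp downstream, had a log2 fold of 1.24. The decreased region, 66120 bp upstream of the start of another transcript, had -0.97.

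Chromosome 7 held 31 of the 280 regions (11.1%, 7.65 to 15.4%), against 1042 of all gained regions (12.1%). Chromosome 2 held 32 (11.4%, against 8.24% of gained regions), chromosome 6 held 20 (7.14% against 4.77%) and chromosome 19 held 13 (4.64% against 2.79%). Shares were also higher on chromosomes 14 (4.29% against 2.46%) and 20 (1.79% against 0.93%). They were lower on chromosomes 8 (2.5% against 4.09%), 11 (3.57% against 5.86%) and 16 (0.36% against 1.25%), among others. No rule chose these chromosomes, and the differences were not tested. The chromosome 7 share moved with the threshold in both sets: at an FDR of at most 0.01 it was 17.4%, against 14.7% of gained regions, and at a log2 fold of at least 1 it was 16.5% against 16.3%.

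The largest fold was at CASP2, the gene of the apoptotic protease caspase-2. Its region, chr7:142998287-142998687, 1323 bp downstream of the deposited start, had 24.8 against 4.90 reads, a log2 fold of 1.74 or 3.34-fold (FDR 3.51e-05). The region covering a CASP2 start lay 12.7 kb away, at another transcript. RefSeq gives CASP2 2 starts, 1237 bases apart in GRCh38.p14, and whether either is the deposited start was not determined. Next came TRABD2A, a membrane protease gene, with a region 2069 bp upstream at 20.6 against 3.20 reads (1.72). RNF216, a ubiquitin ligase gene, had 34.2 against 8.70 reads 2160 bp upstream (1.61), and GALNT7, which takes part in O-linked glycosylation, 24.9 against 5.75 reads 1163 bp downstream (1.59). The other large folds were at STXBP5, which binds syntaxins (1.48), the proton-sensing receptor gene GPR65 (1.43), the polysialyltransferase gene ST8SIA4 (1.42) and the potassium channel gene KCND2 (1.40). Apart from ST8SIA4, with 58.3 against 18.6 reads, the control means of these 10 regions, including those of RPL22L1 and DAGLB, were all under 10 reads.

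The smallest FDR values belonged to regions with control means above the set's median of 10.1 reads, except at RNF216 (8.70 reads). They were 5.82e-06 at ST8SIA4, 6.52e-06 at IER2, 1.05e-05 at the imprinted gene PEG10 (65.0 against 22.7 reads, log2 fold 1.33), 1.37e-05 at RNF216 and 2.27e-05 at JUNB. The highest mean levels were at SIN3A, the scaffold of a histone deacetylase complex (161 against 90.9 reads, 0.76), DIABLO, an antagonist of inhibitors of apoptosis (130 against 78.8 reads, 0.67), ZNF595 (134 against 70.5 reads, 0.85), the nuclear receptor coactivator gene NCOA2 (127 against 61.2 reads, 0.95) and TENT4A, a poly(A) polymerase gene (124 against 56.5 reads, 1.02). The smallest folds, 0.65 at HYAL2, 0.64 at SMAD6, 0.60 at CD300A, 0.59 at LYL1 and 0.59 at SLC17A9, were all in regions with control means between 32.9 and 47.8 reads.

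Genes were grouped by 27 lists. Of all protein-coding genes, 242 of 20052 (1.21%) had an outer region, or 4.78% of the 5060 with any gained region, and the counts below are read beside these shares without a test. In all, 75 of the 267 genes were in a list, and 3 lists had no gene with an outer region: PRC2 subunits (0 of 15), HOX genes (0 of 40) and histone genes (0 of 92). Any gained region was listed for only 6, 2 and 5 of their genes, so nothing is read from these counts.

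Immediate early genes had the highest share, 7 of 38 (18.4%), or 7 of the 24 with any gained region (29.2%). With a log2 fold of at least 1 the count was 4, and in the 2 to 3 kb band alone it was 1. Their 11 outer regions had log2 folds from 0.71 to 1.28. Among the genes of the AP-1 transcription factor, JUNB had 102 against 45.2 reads 1218 bp upstream (chr19:12900692-12901092, log2 fold 1.07). A second JUNB region, past the end of the short gene, had 62.6 against 35.0 reads (0.71). JUND had 60.8 against 25.8 reads 1101 bp downstream (1.02) and 46.7 against 22.98 reads 1768 bp downstream (0.86), while the region covering its start had 94.1 against 38.0 reads (1.16). In JUND the start had the highest level and the largest fold of the 3 regions.

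IER2, a short immediate early gene of a nuclear protein, had the largest fold of this group. The region 2187 bp downstream (chr19:13263469-13264382, 914 bp wide) had 87.5 against 32.1 reads (1.28), and that 1237 bp downstream had 84.0 against 43.7 reads (0.81). EGR1, a zinc finger transcription factor, had 73.8 against 32.2 reads 1087 bp upstream (chr5:137799694-137800094, 1.03) and 96.8 against 39.8 reads in the region ending 104 bp before its start (1.15). The orphan nuclear receptor genes were represented by NR4A2, with 14.9 against 5.75 reads 1323 bp upstream and 18.8 against 7.80 reads 1813 bp upstream (0.91 in each), and by NR4A3, with 57.6 against 26.5 reads 1696 bp upstream (0.97). DUSP6, the phosphatase of ERK kinases, had 43.5 against 23.6 reads 1354 bp upstream (0.73), 64.2 against 30.6 reads at its start (0.94) and 45.7 against 18.8 reads 5673 bp downstream (1.07). NR4A3 and DUSP6 were outside the rule for named genes and complete the list of 7. A start region was listed for 3 of the 7 genes, DUSP6, EGR1 and JUND.

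**Figure D4:**
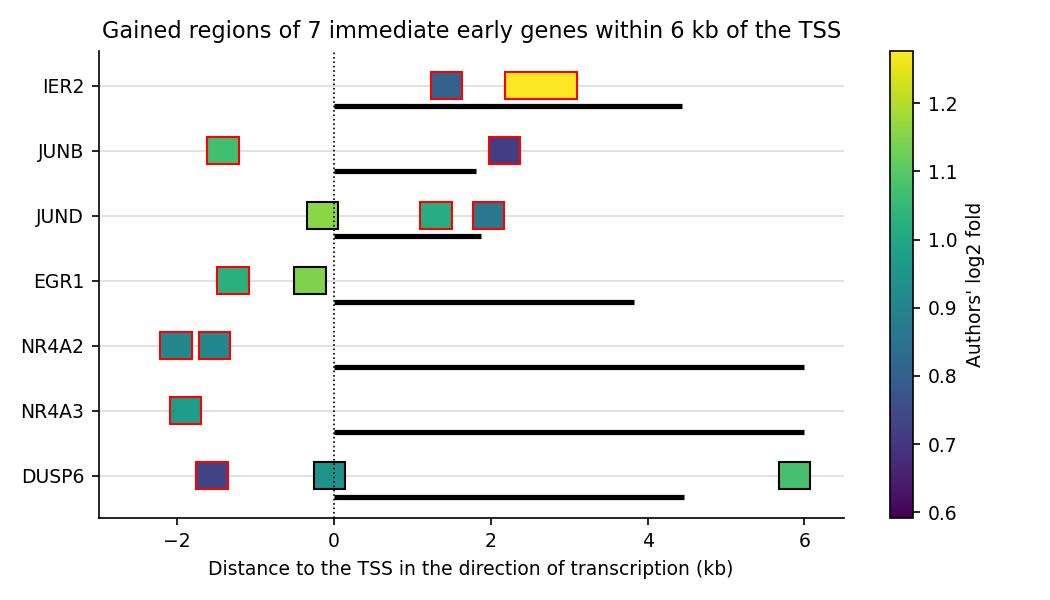
Gained regions of the 7 immediate early genes within 6 kb of the TSS are drawn to scale along the direction of transcription in kb, with the authors' log2 fold as fill colour; red outlines mark the 11 regions 1 to 3 kb out, and the black bar under each row is the deposited gene body, which for NR4A2 and NR4A3 goes on past 6 kb. IER2, JUNB, NR4A2 and NR4A3 have outer regions and no gained region at the start.

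By share of all list genes, haematopoietic transcription factors followed with 4 of 48 (8.33%), or 4 of the 19 with any gained region (21.1%). IKZF2, which encodes Helios, had 12.6 against 3.60 reads 2026 bp upstream (1.11). RUNX1, the gene whose product forms the N-terminal part of this line's fusion protein, had 43.0 against 16.8 reads 1030 bp upstream (chr21:36262017-36262417, 1.11), and a start region at 0.98. The fused and the intact copy of RUNX1 cannot be told apart in these values. MECOM, a zinc finger regulator of blood stem cells, had 28.8 against 14.3 reads (0.78), and LYL1, a basic helix-loop-helix factor, 69.3 against 42.9 reads (0.59).

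The genes of Polycomb complexes with any gained region were few, and the difference between their 2 lists was not tested. Among PRC1 subunits, 2 of 25 had one (8%), or 2 of the 10 with any gained region (20%): PHC2, a polyhomeotic subunit, with 19.0 against 8.12 reads 2753 bp upstream (0.88), and BCOR, a corepressor of a variant PRC1, with 26.6 against 13.6 reads 1378 bp downstream (0.79). None of the 6 PRC2 subunit genes with any gained region had one 1 to 3 kb out. Among 6 genes this is near the 4.78% of all protein-coding genes, so nothing is read from it. KDM6B, the demethylase that removes methyl groups from lysine 27 of histone H3, was the only one of 55 histone methyltransferase and demethylase genes. That is 1 of the 24 with any gained region (4.17%), near the share of all protein-coding genes. Its outer region had 12.2 against 2.54 reads 2613 bp downstream (1.30), with a touching gained region just past 3 kb. Among 81 acetyltransferase, deacetylase and remodeller genes were the bromodomain genes BRWD3 (1.38) and BRWD1 (0.75). They were 2 of the 40 with any gained region (5%), also near that share.

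Surface and apoptosis genes had folds on both sides of the median of the set. HAVCR2, which encodes the checkpoint receptor TIM-3, had 9.65 reads in the knockdown 2009 bp downstream and a control mean at the floor (1.39), and CD96, a receptor of lymphoid cells and of leukaemic stem cells, 17.1 against 7.26 reads (0.87). These were 2 of 32 haematopoietic surface genes, or 2 of the 13 with any gained region (15.4%). CASP2 (1.74) and DIABLO (0.67) were 2 of 34 apoptosis genes, or 2 of the 14 with any gained region (14.3%). Among lists with a single gene were granulocyte and monocyte genes (VCAN, 0.96, of 28, and of the 4 with any gained region), cell cycle genes (GADD45B, 0.80, of 38) and NF-kappaB, cytokine and interferon genes (IRF2, 1.08, of 43). In the latter 2 lists, 13 and 17 genes had any gained region.

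The lists of housekeeping families, as written, held few genes with an outer region, while many of their genes had a gained region elsewhere. Ribosomal proteins had 1 of 86 (RPL22L1) with 40 genes gained anywhere, translation factors and tRNA synthetases 1 of 108 (EEF1A1) with 44, and splicing and RNA processing genes 1 of 200 (HNRNPU, 1.20) with 81. Mitochondrial ribosome, respiratory chain and import genes had 1 of 215 (MRPL3, 1.05) with 61, chaperones 1 of 95 (DNAJC10, 0.90) with 34, ubiquitin and proteasome genes 2 of 285 (UBE2E3, 1.05, and UBE2J1, 1.02) with 92, and secretory pathway genes 2 of 265 (VPS8, 1.20, and STX1A, 1.18) with 88. As shares of the genes gained anywhere these were between 1.23% and 2.94% for the lists as written, below the 4.78% of all protein-coding genes. The chaperone list follows symbol patterns and misses HSP90AA1, which had an outer region at 0.97 and is named because the list would otherwise seem complete. With HSP90AA1 counted, the chaperone share would lie above that of all protein-coding genes. The ubiquitin and proteasome list likewise misses the ubiquitin ligase genes RNF216, HUWE1 (0.99), MYLIP (0.95) and TRIM5 (0.95). The secretory pathway list misses the trafficking genes COG1 (0.87), TGOLN2 (0.93) and TM9SF2 (0.68). These genes are named for the same reason as HSP90AA1. How many genes each list misses was not counted, so nothing is read from the low shares.

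Developmental transcription factor families had 5 of 180 genes: FOXP1 (1.15), FOXK1 (0.86), POU2F1 (0.81), PAX5 (0.73) and FOXD2 (0.66). Neurotransmitter receptors and ion channels had 4 of 257, KCND2 (1.40), the GABA receptor gene GABRB2 (1.40), KCNH7 (1.09) and KCNJ5 (1.01). Axon guidance and neural adhesion genes had 4 of 191, the cadherin gene CDH18 (1.18), CNTNAP5 (1.12), the ephrin gene EFNB2 (0.86) and the neuroligin gene NLGN1 (0.86). As shares of the genes gained anywhere, these 3 lists had 11.1%, 6.25% and 6.90%. ZNF genes had 5 of 517, led by ZNF804A (1.22), and solute carriers 5 of 386, led by SLC16A7 (1.14). Of their genes gained anywhere these were 5% and 5.56%, near the 4.78% of all protein-coding genes.

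Most outer regions, 254 (90.7%), had a protein-coding nearest gene. A long noncoding RNA was nearest in 13, a microRNA gene in 7, a transcribed pseudogene in 5 and a small nucleolar RNA in 1. MIR17HG, whose products are shown above, had 38.2 against 13.5 reads 1073 bp downstream of its start (chr13:92001147-92001547, log2 fold 1.25), and a start region at 1.03. MIR148A had 14.5 against 4.14 reads 1088 bp upstream (1.15), and MIR26A1 had 13.4 against 5.17 reads 1713 bp upstream (0.88). MIR4677 (1.004), MIR4648 (0.90), MIR3150B (0.86), MIR5188 (0.78) and MIR3960 (0.67) made up the rest of the microRNA genes. MIR26A1, MIR3150B and MIR5188 fall outside the rule for named genes and complete this list.

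RefSeq's GRCh38.p14 promoter windows were available for 219 of the 267 genes, 207 of them protein-coding with 331 windows. In the 250 bases before the start, these had a median GC content of 63.2% and 18 CpG dinucleotides, between all protein-coding windows (62% and 16, n = 22198) and those of genes with a gained region covering the TSS (64.8% and 22, n = 3401). Genes with an outer region and a start region had a median of 23 CpG dinucleotides, and those with an outer region alone had 13.5. Of the motifs searched on both strands, the CArG box was in 10 of the 331 windows (3.02%), against 1.18% of all protein-coding windows. The cAMP response element TGACGTCA was in 1.21% (2.01% of all), the AP-1 site TGANTCA in 5.44% (5.36%), the TATA box TATAAA in 11.2% (9.01%), the GC box GGGCGG in 56.2% (53.7%), CCAAT in 31.4% (32.7%) and the RUNX site TGTGGT in 10.6% (9.36%). A CArG box can hold a TATAAA or a CCAAT, so these counts overlap in part. Windows of 1 gene overlap, so these shares are descriptions of the starts and say nothing of the outer regions' own sequence. Starts 1 to 3 kb apart were listed by RefSeq for 16 of 207 genes with an outer region (7.73%, 4.48 to 12.2%), 6.44% of genes with any gained region and 5.03% of all protein-coding genes.

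The 17 decreased regions 1 to 3 kb out are the counterpart in the same position, so that gained regions were 94.3% of the 297 listed there (91.0 to 96.6%), against 97.7% of all listed regions. Their log2 folds ran from -0.81 to -1.34, with a median of -0.98. The largest decrease was at MIR99B, with 4.97 against 19.4 reads. Median levels were low, 2.74 against 11.1 reads, and 1 of the 17 passed an FDR of 0.01. The authors' normalisation, on which the balance of gained and decreased regions can depend, is not given in the sources used here.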

How the data were processed

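Both deposited tables, of regions increased and decreased after PHF19 knockdown, were pooled. Per the file headers they hold log2 means of normalised reads, overall and per group, a log2 fold, a p-value and an FDR, computed by the authors before deposit, with annotation and distance to the TSS. Per the submitters' processing notes the tools were MACS2 2.2.6, deepTools 1.5.12, Picard 2.2.4 and Bowtie2 2.4.1, with no roles or settings. How libraries were normalised and tested, whether reads were shifted for the transposase, and how regions were merged is not given in the sources used here. Group columns were assigned because the overall mean gave the knockdown column a median weight of 0.429, as 3 of 7 libraries would, and because it is the higher in every increased region. The group means are floored at 1 read. The number of tested regions, 52675, is the most frequent value of FDR times rank over p-value.

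Shares carry exact Clopper-Pearson 95% intervals and medians exact order-statistic intervals, both for counting error only. Distances are from the nearest edge of a region. Pairs use the start region nearest to the outer region, a choice made after seeing the data. Motifs were counted in the 250 bases before each RefSeq start. The regions and the 27 gene lists (9 by symbol, 18 by symbol pattern) were chosen with earlier results of these data known. Named genes are those with the 10 largest and 5 smallest folds, 5 highest means, 5 smallest FDR values, 5 largest differences from the start region of largest fold in each direction, the 3 regions on each side of each limit, genes with 2 outer regions or a decreased region, and list genes (the 4 largest folds where a list had over 5). The sequences of the regions themselves were not analysed here. Values were computed with scipy 1.17.1, numpy 2.4.6 and pandas 2.3.3 in Python 3.11.15 and drawn with matplotlib 3.10.9, and the functions were tested on simulated data. Alternatives were a stricter FDR, a minimum fold, single bands, 1 region per gene, no floored means and no chromosome 7.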

Additional observations from a re-analysis of the deposited data

How the results depend on the processing

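An FDR of at most 0.01 left 121 regions, with a median log2 fold of 1.11, 40.5% upstream, 17.4% on chromosome 7 and a median distance of 38.7 kb to the nearest other gained region. A log2 fold of at least 1 also left 121, with a median of 1.14, 41.3% upstream, 28.9% with a start region, 16.5% on chromosome 7, a distance of 70.7 kb and 4 immediate early genes in place of 7. These 2 settings thin the other gained regions as well. The 1 to 2 kb band alone has 180 regions. The 2 to 3 kb band alone has 100, with a median of 1.002, 30% with a start region and 1 immediate early gene. Counting as start regions only those that cover the TSS gave 28.6%, and the difference of the group means gave a median of 1.32. The settings for immediate early genes were chosen after seeing the data. The settings for the choice of start region were too. The other 42 of 61 values, among them every value without floored means, with 1 region per gene or without chromosome 7, stayed within 1.5 times the main count or inside the main interval, while the median difference between outer and start region, which includes 0 in its interval, ran from -0.04 to 0.04 with the choice of start region. Leaving out each replicate was not run, since the tables hold group means. No paired analysis was possible because the columns carry no replicate numbers. Means of a few reads and the authors' threshold limit what these tables can show.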
